A study of Equus caballus with 93 samples.

Results

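ENSECAG00000018814 and ENSECAG00000023772 were the 2 genes, of 15838 measured, with the largest mean fall in synovial fluid cells between the weeks before and after joint surgery. They were chosen on the change in mean log2 CPM (a log2 level scaled to library size) from week 0 to week 2 over both treatment arms together. Only genes were counted that passed an adjusted p of 0.05 in that contrast, averaged 1 log2 CPM or higher over all 93 libraries and fell in at least 75% of horses. The rule was met by 1666 genes. Their values were followed in all 93 libraries. The study used 16 horses aged 2 to 5 years, and in each an osteochondral fragment was made surgically in 1 middle carpal joint while the opposite limb had a sham operation. At week 2 the fragment joint received 2 mL of either 2.5% iPAAG, an injectable polyacrylamide hydrogel (iPAAG arm, 8 horses), or phosphate buffered saline (Control arm, 8 horses), and all horses were exercised from week 2 to week 10. Synovial fluid was drawn at weeks 0, 2, 4, 6, 8 and 10, and RNA of the pelleted cells was sequenced. Week 0 was before surgery in both arms, and every later sample in both arms followed surgery, so the saline horses are operated animals and not healthy controls. The labels give neither the joint of each library nor the order of fluid draw and injection at week 2. A group held 8 horses, except 7 in each arm at week 4 (without Control horse 11 and iPAAG horse 3) and 7 in the iPAAG arm at week 8 (without horse 14).

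Synovial fluid of a resting joint holds few cells, mainly macrophages and other mononuclear leukocytes with some cells shed from the synovial lining. Joint injury and surgery are known to bring blood leukocytes into the fluid. RNA of the whole pellet sums over all cells present, so in these bulk samples fewer cells of a type and less RNA per cell cannot be told apart. The files name genes by Ensembl horse identifier only, and 0 of the 15838 identifiers could be matched to a symbol in the table of gene names used here. What these genes encode, their position and their sequence are therefore not given, and no cell type marker could be read.

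Libraries differed in how widely their values were spread over genes, and this touches several results below. The SD of log2 CPM over all genes of a library, called its spread here, ran from 1.20 to 4.21. There was a gap at 2: the highest spread below it was 1.90 and the lowest above it was 2.19. The 23 libraries of spread below 2 held 1737741 to 12597216 reads in genes, and the 70 others 6076026 to 39916655. Libraries of low spread were unequal between arms, with 4 of 7 iPAAG libraries and none of 7 Control libraries at week 4, 4 of 8 and 2 of 8 at week 6, and 6 of 8 and 2 of 8 at week 10. At weeks 0, 2 and 8 no group had more than 1.

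The fall that chose the genes is a description and carries no test. ENSECAG00000023772 fell by 4.18 ± 0.46 on the log2 scale (limma estimate ± SE, 16 horses), from a mean of 9.19 to 5.01, and was lower at week 2 in 16 of 16 horses. ENSECAG00000018814 fell by 4.54 ± 0.84, from 4.76 to 0.22, and was lower in 15 of 16 horses. The exception was iPAAG horse 6, which went from 0.54 to 2.35. The mean of ENSECAG00000018814 was 1.79 over all 93 libraries and 0.99 in the 70 of spread 2 or more. It thus met the level of 1 in the choice only with the low-spread libraries included. In this contrast 19.6% of all genes were called, meaning a Benjamini-Hochberg adjusted p below 0.05 in limma. The next largest falls, just outside the choice, were 4.08 ± 0.47 for ENSECAG00000000385 and 3.64 ± 0.56 for ENSECAG00000012151. In reads, the median library went from 18766 to 425.5 reads of ENSECAG00000023772 and from 913 to 19 reads of ENSECAG00000018814.

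**Figure D1:**
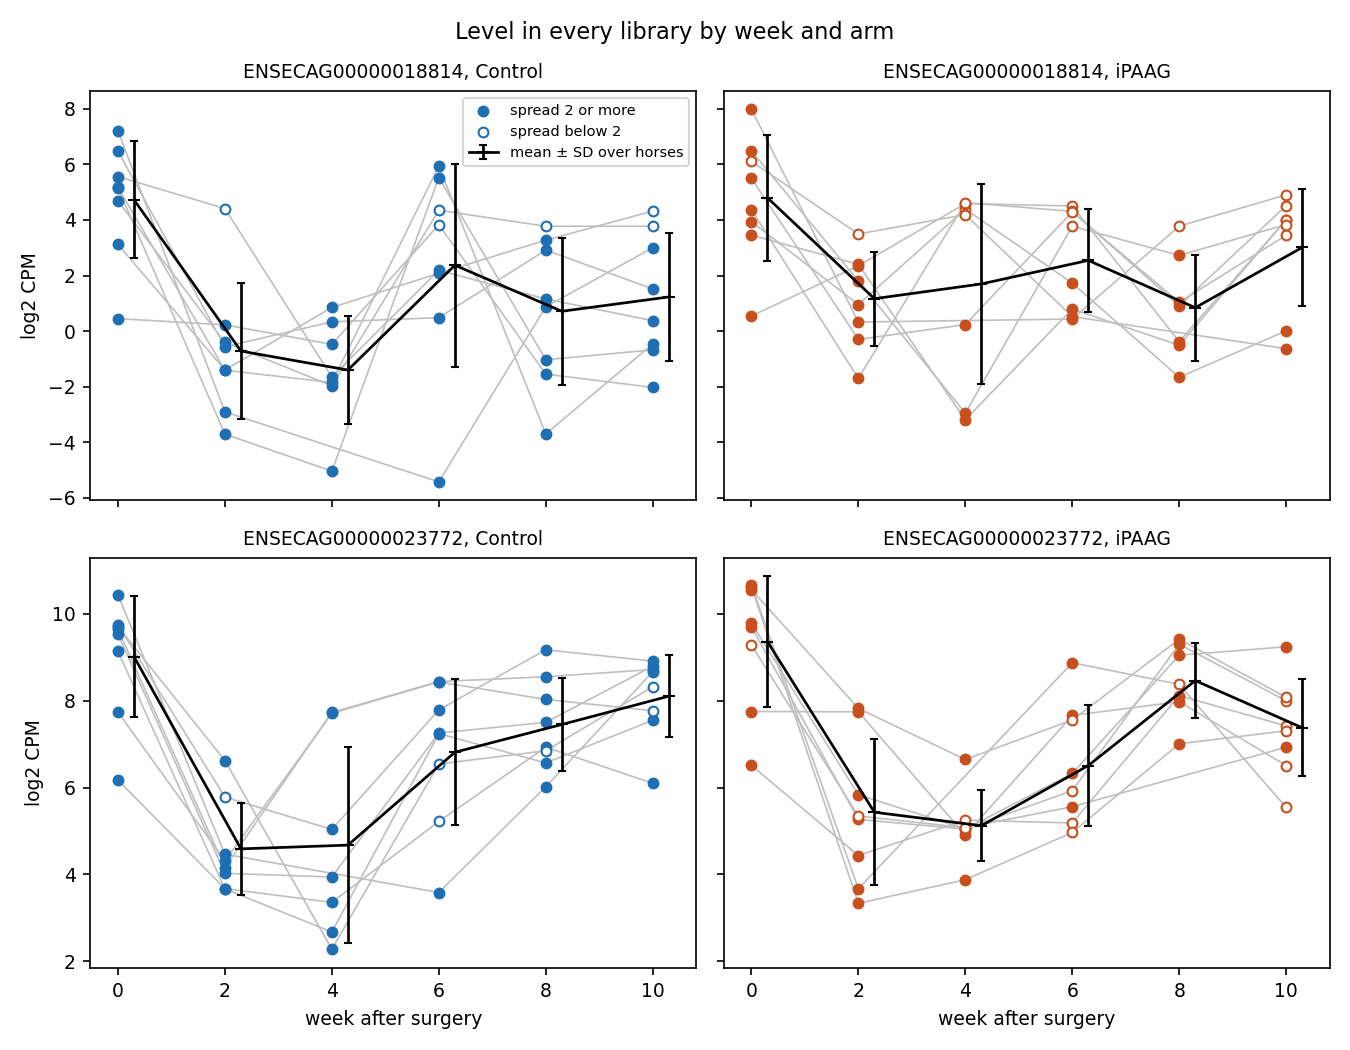
Log2 CPM of both genes (vertical axes) at each week after surgery (horizontal axes) in the Control (blue) and iPAAG (orange) arms. Each point is 1 library, grey lines join the libraries of 1 horse, open points are libraries of spread below 2, and black marks are the mean ± SD over horses. ENSECAG00000023772 climbed again after week 4 in both arms, to means of 8.10 (Control) and 7.38 (iPAAG) at week 10, while ENSECAG00000018814 scattered widely from week 4 on.

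In the Control arm, ENSECAG00000023772 stood at 6.17, 9.59 and 10.43 log2 CPM at week 0 (lowest, median and highest of 8 horses). It stood at 3.67, 4.24 and 6.62 at week 2 and at 2.28, 3.94 and 7.73 at week 4 (7 horses). The ranges of weeks 0 and 2 met only through horse 2, which was lowest at week 0 with 6.17, and horse 9, which was highest at week 2 with 6.62. At week 4 the horses split, with horses 1 and 13 already at 7.73 and 7.71 and the other 5 between 2.28 and 5.04. The level was 3.58, 7.25 and 8.44 at week 6, then 6.02, 7.22 and 9.17 at week 8, and 6.10, 8.49 and 8.91 at week 10. Horse 11, which had no week 4 library, was the lowest at week 6 with 3.58 and reached 8.67 at week 10.

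In the iPAAG arm, ENSECAG00000023772 stood at 6.51, 9.75 and 10.67 at week 0 (lowest, median and highest of 8 horses). It stood at 3.33, 5.31 and 7.82 at week 2 and at 3.88, 5.05 and 6.65 at week 4 (7 horses). Horse 12 barely moved between weeks 0 and 2, with 7.75 and 7.74, and reached its lowest value, 4.91, at week 4. The level was 4.97, 6.13 and 8.87 at week 6, then 7.01, 8.38 and 9.42 at week 8 (7 horses), and 5.54, 7.36 and 9.24 at week 10. The ranges of neighbouring weeks overlapped from week 0 to week 10 in this arm. Horse 3 had the highest week 0 value of the arm, 10.67, and the lowest at week 10, 5.54.

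Over both arms the means of ENSECAG00000023772 ordered as week 0 (9.19 ± 1.41 SD, n = 16), week 8 (7.92 ± 1.08, n = 15), week 10 (7.74 ± 1.07, n = 16), week 6 (6.66 ± 1.49, n = 16), week 2 (5.01 ± 1.42, n = 16) and week 4 (4.90 ± 1.65, n = 14). Of the neighbours in this order, weeks 6 and 2 alone differed by more than the larger of their SDs over horses. Of the 16 horses, 10 reached their lowest value in week 4, 5 in week 2 and 1 in week 6. The highest value was at week 0 in 12 horses, at week 8 in 3 and at week 6 in 1.

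ENSECAG00000023772 rose again within weeks 4 to 10, a period that did not enter the choice of the gene. Week 10 exceeded week 4 in all 14 horses with both weeks, by 2.85 ± 0.47 on the log2 scale over both arms (limma, SE, adjusted p = 8.60e-05), and 9.4% of all genes were called in this contrast. The mean of weeks 8 and 10 exceeded that of weeks 4 and 6 by 2.07 ± 0.33 (limma adjusted p = 0.000229), with 5.76% of genes called. In Control horses alone the rise from week 4 to week 10 was 3.44 ± 0.67 (limma adjusted p = 0.000387), with 12.4% of genes called. In iPAAG horses it was 2.26 ± 0.67, higher in 7 of 7 horses, and was not called (limma adjusted p = 0.692, unadjusted p = 0.00114). No gene was called in the iPAAG contrast (0%), where 558 genes had an unadjusted p below 0.05. The iPAAG rise was called with quantile normalisation (2.67, limma adjusted p = 0.0161), with array weights (2.20, adjusted p = 0.000449) and with library spread as a covariate (2.27, adjusted p = 0.0395). Those fits called 180, 4446 and 471 of 15838 genes in the iPAAG contrast. The both-arm rise stayed called without the libraries of low spread, at 3.32 ± 0.76 (limma adjusted p = 0.00223), where 3307 genes were called.

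By week 10, ENSECAG00000023772 had regained 79.4% of its log2 fall in Control horses and 49.5% in iPAAG horses. In Control horses it remained 0.91 below week 0 on the log2 scale, a difference of -0.91 ± 0.65 (limma SE, 8 horses). In iPAAG horses the difference was -1.98 ± 0.65. Both SEs come from the fit over all libraries, which took a correlation of 0.04 between libraries of 1 horse and so hardly used the pairing. The SD over horses of the difference within each horse was 0.66 in Control and 1.82 in iPAAG horses. No interval is given, since week 0 chose the gene. Horse by horse, the value at week 10 was above week 2 in 8 of 8 Control and 7 of 8 iPAAG horses, and below week 0 in 7 of 8 in each arm. The exceptions to the latter were Control horse 13, higher by 0.03, and iPAAG horse 6, higher by 0.91. Among libraries of spread 2 or more the regained share was 80.6% in Control and 67.3% in iPAAG horses, the latter from 2 libraries at week 10. Under 5 alternatives, this one included, it ran from 79.4% to 83.7% in Control and from 42.9% to 71.8% in iPAAG horses. With 1 horse left out it ran from 77.1% to 81.75% and from 42.9% to 56.1%. No test was made of these shares or of the differences from week 0, because weeks 0 and 2 chose the gene.

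ENSECAG00000018814 in the Control arm stood at 0.45, 5.16 and 7.20 log2 CPM at week 0 (lowest, median and highest of 8 horses). It stood at -3.71, -0.98 and 4.41 at week 2 and at -5.04, -1.65 and 0.85 at week 4 (7 horses). The week 2 maximum was horse 10, whose library was of low spread, and without it the 7 others reached no higher than 0.22. Week 6 was the most divided, at -5.43, 3.01 and 5.94. Horses 15 and 16 stood at 5.52 and 5.94 there, horse 11 at -5.43, and all 3 libraries were of spread 2 or more. The level was -3.70, 1.01 and 3.77 at week 8 and -2.03, 0.95 and 4.32 at week 10, so every week after surgery overlapped every other.

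In the iPAAG arm ENSECAG00000018814 stood at 0.54, 4.93 and 7.99 at week 0 (lowest, median and highest of 8 horses). It stood at -1.70, 1.38 and 3.50 at week 2 and at -3.19, 4.19 and 4.62 at week 4 (7 horses). The 7 libraries of week 4 formed separate sets: the 4 of low spread lay between 4.19 and 4.62, and the 3 others between -3.19 and 0.23. The level was 0.43, 2.75 and 4.50 at week 6, -1.66, 0.91 and 3.78 at week 8 (7 horses), and -0.63, 3.92 and 4.90 at week 10. The weeks after surgery overlapped here too. From week 4 on, the low-spread libraries of this arm lay at 3.45 or higher and the others at 2.72 or lower. The share of all genes that part these libraries in the same way was not counted.

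Over both arms the means of ENSECAG00000018814 ordered as week 0 (4.76 ± 2.12 SD, n = 16), week 6 (2.46 ± 2.79, n = 16), week 10 (2.12 ± 2.32, n = 16), week 8 (0.77 ± 2.24, n = 15), week 2 (0.22 ± 2.25, n = 16) and week 4 (0.15 ± 3.22, n = 14). Each neighbouring pair in this order differed by less than the larger of its SDs over horses. Many of these values rest on few reads, since the median library held 19 reads at week 2 and 16.5 at week 4. No read was counted in Control horse 15 at week 4 or in Control horse 11 at week 6. On the deposited scale, which adds 0.5 reads, 3 reads at those depths would be -2.23 and -2.62 log2 CPM, which is the upper limit that a count of 0 allows for counting error alone. The lowest value fell in week 2 in 5 horses, week 4 in 5, week 8 in 3, week 10 in 2 and week 6 in 1.

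**Figure D2:**
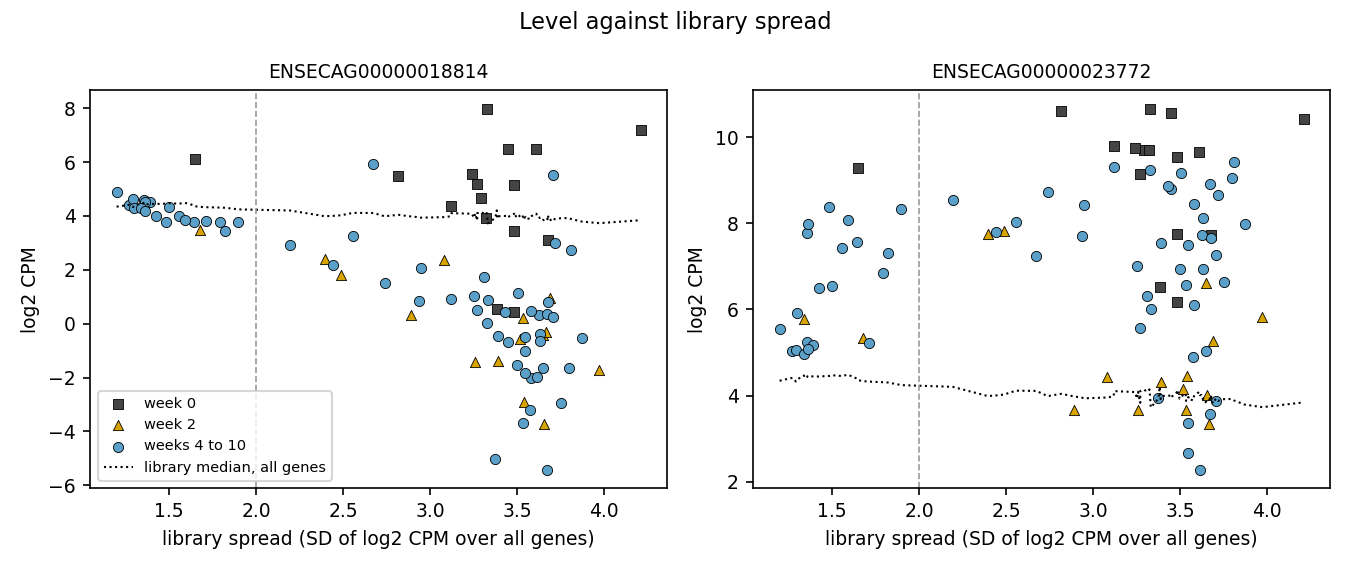
Log2 CPM of both genes (vertical axes) against the spread of the library, the SD of log2 CPM over all genes (horizontal axes), for 93 libraries marked by week. The dashed line is a spread of 2 and the dotted line is the library's own median over genes. Left of the dashed line ENSECAG00000018814 stayed between 3.45 and 6.10, and right of it the values ran from -5.43 to 7.99, while ENSECAG00000023772 ran from 4.97 to 9.28 on the left and from 2.28 to 10.67 on the right.

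ENSECAG00000018814 stood at different levels in libraries of low and of wider spread. In the 20 low-spread libraries of weeks 4 to 10 it lay between 3.45 and 4.90 (median 4.24), and in the 41 others of those weeks between -5.43 and 5.94 (median 0.33). The medians over all genes of those 20 libraries were 4.24 to 4.49 log2 CPM, on a scale not corrected for gene length. Across the 41 libraries its Pearson r with spread was -0.46. ENSECAG00000023772 had r = -0.22 over the same 41 libraries, with medians of 6.53 in the low-spread and 7.55 in the other libraries. These r describe libraries that share horses and depth, and the part of spread in the level of either gene was not tested. Spread is itself computed over all genes, and r with it was not computed for other genes. The values therefore do not show that this is particular to ENSECAG00000018814.

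How far ENSECAG00000018814 had returned by week 10 depended on these libraries. It regained 35.8% of its log2 fall in Control horses and 50.8% in iPAAG horses. Week 10 stood -3.50 ± 1.18 (limma SE, 8 horses) from week 0 in Control and -1.79 ± 1.18 in iPAAG horses. The SD over horses of this difference was 2.5 in Control and 3.1 in iPAAG horses. It was below 0 in 7 of 8 Control and 5 of 8 iPAAG horses. No interval or test is given, since week 0 chose the gene. Week 10 was above week 2 in 6 of 8 horses of each arm. Without the libraries of low spread the regained share was 28.2% in Control horses. In iPAAG horses the difference from week 0 was then -4.92 and the share -30.3%, a level below week 2, from 2 libraries at week 10. Those were of horses 5 and 14, and horse 14 had no such library at week 0 or 2. In iPAAG horses with all 6 weeks the difference was -0.75 and the share 76.2%. With 1 horse left out the share ran from 25.3% to 46.25% in Control and from 37.1% to 71.4% in iPAAG horses.

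Within weeks 4 to 10, ENSECAG00000018814 was not called in any of the 4 contrasts. Week 10 minus week 4 was 1.97 ± 0.87 over both arms (limma adjusted p = 0.139), higher in 9 of 14 horses. It reached 2.44 (limma adjusted p = 0.0481) with iPAAG horse 14 left out, where 2503 of 15838 genes were called. The same contrast was 2.66 ± 1.23 in Control (adjusted p = 0.147) and 1.29 ± 1.23 in iPAAG horses (adjusted p = 0.977). Weeks 8 and 10 minus weeks 4 and 6 gave 0.15 ± 0.61 (adjusted p = 0.924), with an interval from -1.06 to 1.36.

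Both genes varied more between horses of the same arm and week than most genes did. Among libraries of spread 2 or more, the SD within arm and week was 2.17 for ENSECAG00000018814, above that of 94.0% of all genes, and for ENSECAG00000023772 it was 1.52, above that of 81.0%. Over all 93 libraries the SDs were 2.45 and 1.37, above those of 88.0% and 72.0% of genes. Against the 11818 genes averaging 1 log2 CPM or more in the libraries of spread 2 or more, a level that ENSECAG00000018814 itself missed at 0.99, the shares were 99.7% and 97.8%. Weeks 0 and 2, which chose the genes for an extreme change, are among the groups. The ranks are therefore a description and may partly follow from the choice. For ENSECAG00000018814 the SD also holds counting error, with libraries of few reads or none. At week 0, Control horse 2 and iPAAG horse 6 were the lowest of their arms for both genes, with 0.45 and 0.54 for ENSECAG00000018814 and 6.17 and 6.51 for ENSECAG00000023772.

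**Figure D3:**
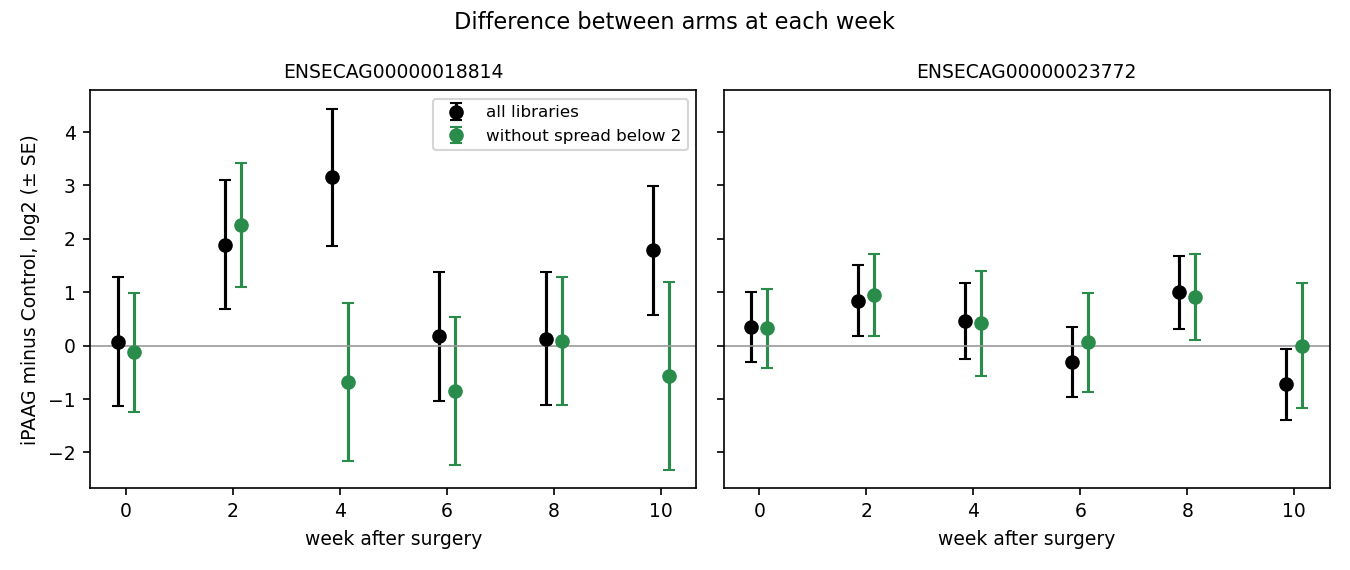
Difference between arms (iPAAG minus Control, log2, ± SE from limma, vertical axes) at each week after surgery (horizontal axes) for both genes, from all libraries (black) and without those of spread below 2 (green). The black estimate of ENSECAG00000018814 at week 4 is 3.15 and the green one is -0.68, while the black estimates of ENSECAG00000023772 lie between -0.73 and 1.00.

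The gel and saline arms were compared at each week and in their change after week 2. With the 4 contrasts within weeks 4 to 10 this made 10 contrasts and 20 tests on these genes. Another 3 contrasts, made of weeks 0 and 2 alone, are given without a test because the values of those weeks chose the genes. The iPAAG minus Control difference of ENSECAG00000023772 was 0.35 ± 0.66 at week 0 and 0.84 ± 0.66 at week 2. ENSECAG00000023772 was not called at any of weeks 4 to 10. For weeks 4, 6, 8 and 10 it was 0.46 ± 0.70, -0.31 ± 0.66, 1.00 ± 0.68 and -0.73 ± 0.66 (limma adjusted p = 0.566, 0.814, 0.594 and 0.350). At week 8, 0.84% of all genes were called between arms, and at weeks 6 and 10 it was 0%, with 1824 and 6874 genes at an unadjusted p below 0.05. The interval of the week 10 difference ran from -2.04 to 0.59, and without low-spread libraries the difference was -0.0011 ± 1.17 (limma adjusted p = 1.00).

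ENSECAG00000018814 was called between arms at week 4 alone of weeks 4 to 10. It was higher by 3.15 ± 1.29 in iPAAG horses (limma adjusted p = 0.0347), in a contrast where 54.2% of all genes were called. As given above, 4 of the 7 iPAAG libraries were of low spread, and these were the 4 high ones. Without libraries of low spread the difference was -0.68 ± 1.49 (limma adjusted p = 0.898), on 3 iPAAG and 7 Control libraries. Leaving out 1 horse ended the call for Control horses 9 and 15 (3.04 and 2.54) and for iPAAG horses 5, 6, 7 and 14 (2.65 to 2.76), with limma adjusted p from 0.0537 to 0.105. The difference was 0.17 ± 1.21 at week 6, 0.13 ± 1.25 at week 8 and 1.78 ± 1.21 at week 10 (limma adjusted p = 0.945, 0.985 and 0.214). With no test, it was 0.07 ± 1.21 at week 0 and 1.89 ± 1.21 at week 2. At week 10 the estimate was -0.57 ± 1.76 without low-spread libraries.

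Neither gene was called by the main limma fit in the 2 tested contrasts of the arms in their change after the injection. Both contrasts start from week 2, one of the weeks that chose the genes over both arms together. Their p-values thus draw in part on values that chose the genes. Between week 2 and the average over weeks 4 to 10, ENSECAG00000023772 changed by 0.74 ± 0.73 less in iPAAG than in Control horses, a difference of -0.74 (limma adjusted p = 0.537, interval -2.18 to 0.71). From week 2 to week 10 the difference was -1.57 ± 0.91 (adjusted p = 0.239, interval -3.39 to 0.25). It was -1.80 and called with array weights (limma adjusted p = 0.0259), a fit that called 11317 of 15838 genes in this contrast. Without low-spread libraries it was -0.95 ± 1.37 (limma adjusted p = 1.00). For ENSECAG00000018814 these differences were -0.58 ± 1.33 and -0.10 ± 1.67 (adjusted p = 0.819 and 0.968). Without low-spread libraries they were -2.76 ± 1.32 and -2.83 ± 2.06, and not called (limma adjusted p = 0.447 and 1.00). The first fall, from week 0 to week 2, differed between arms by 1.82 ± 1.67 for ENSECAG00000018814 and by 0.50 ± 0.91 for ENSECAG00000023772, given without a test. In the 2 tested contrasts 0% of all genes were called by limma, with 3765 and 4185 genes at an unadjusted p below 0.05.

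**Figure D4:**
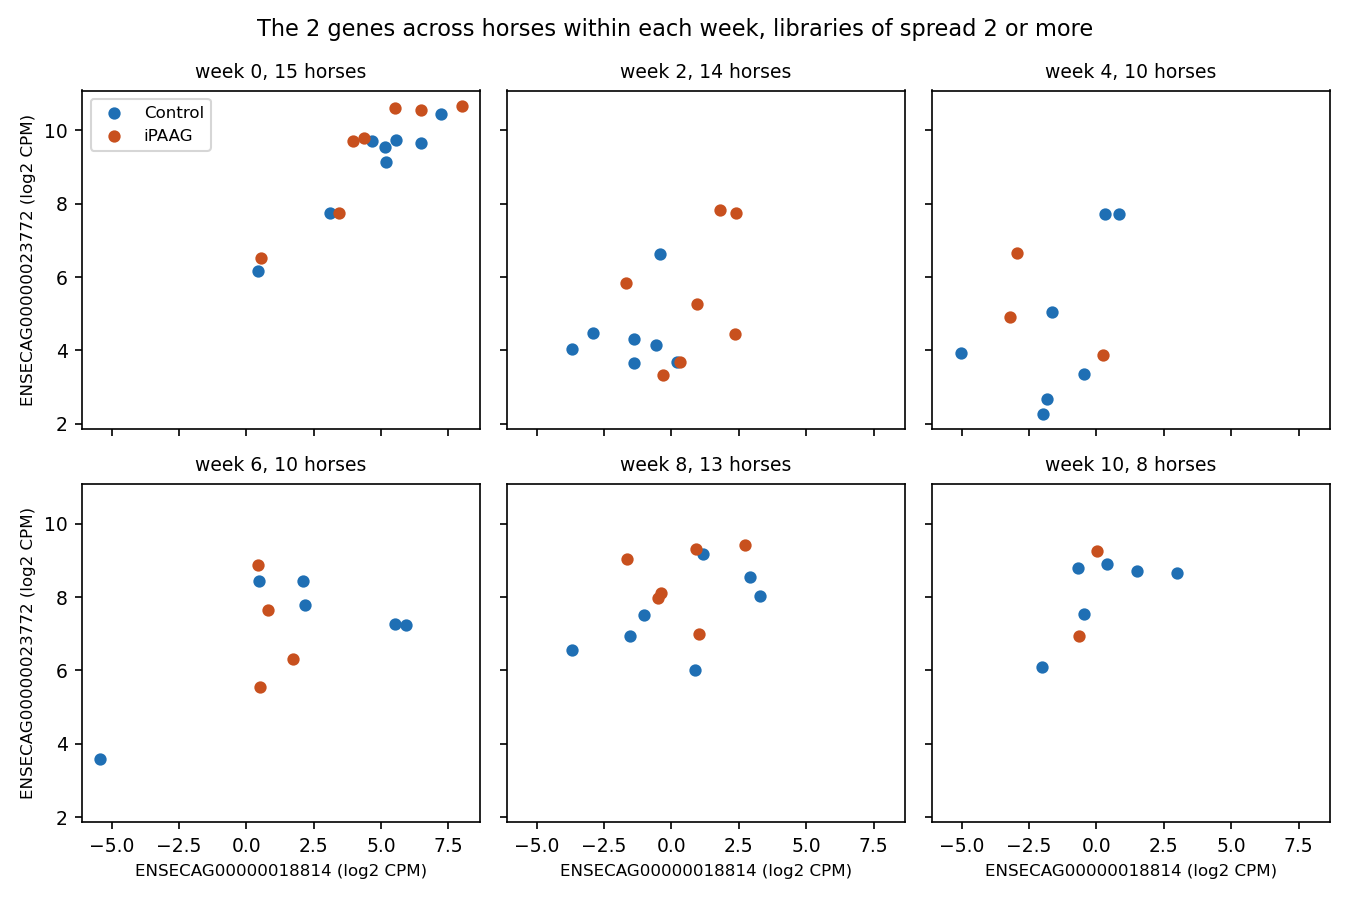
Log2 CPM of ENSECAG00000023772 (vertical axes) against ENSECAG00000018814 (horizontal axes) at each week, 1 point per horse, for libraries of spread 2 or more in the Control (blue) and iPAAG (orange) arms. The 15 horses of week 0 line up (r = 0.92), and the later weeks scatter.

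The 2 genes went together across horses before surgery. At week 0, over 15 horses with a library of spread 2 or more, Pearson r was 0.92 and Spearman rho was 0.81. Week 0 values chose both genes, so this is a description without a test, and so are the values at week 2, where r was 0.46 and rho 0.31 (14 horses). Without Control horse 2 and iPAAG horse 6, the farthest from the median of ENSECAG00000018814, r was 0.79. On deviations from the arm means r was 0.93, and over all 16 horses it was 0.91.

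At weeks 4 to 10 no correlation between ENSECAG00000018814 and ENSECAG00000023772 passed the threshold. For weeks 4, 6, 8 and 10, Pearson r was 0.34 (10 horses), 0.55 (10 horses), 0.41 (13 horses) and 0.62 (8 horses). The permutation p-values were 0.331, 0.112, 0.160 and, by exact enumeration, 0.10, and those adjusted over all 6 weeks 0.331, 0.167, 0.192 and 0.167. Spearman rho was 0.33, -0.02, 0.46 and 0.43, with permutation p-values of 0.350, 0.972, 0.119 and 0.299 (adjusted 0.420, 0.972, 0.357 and 0.420). Both adjustments include weeks 0 and 2, which chose the genes, so the adjusted values depend on those weeks. Before adjustment no permutation p of weeks 4 to 10 was below 0.05 either. Without the 2 horses farthest from the median, r was 0.08, -0.09, 0.42 and 0.46, and at week 2 it was 0.26. The week 6 value thus rested on Control horses 11 and 16. Whether the correlation at week 0 differed from that at later weeks was not tested.

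Pooled over the 70 libraries of spread 2 or more, in which each horse appears several times and the course over weeks is shared, the r between these genes was 0.68. It was 0.54 on deviations from the arm-by-week means, and 0.46 on those of the 41 libraries of weeks 4 to 10. Over all 93 libraries the r of the values was 0.51, and within the 23 low-spread libraries it was 0.05.

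**Figure D5:**
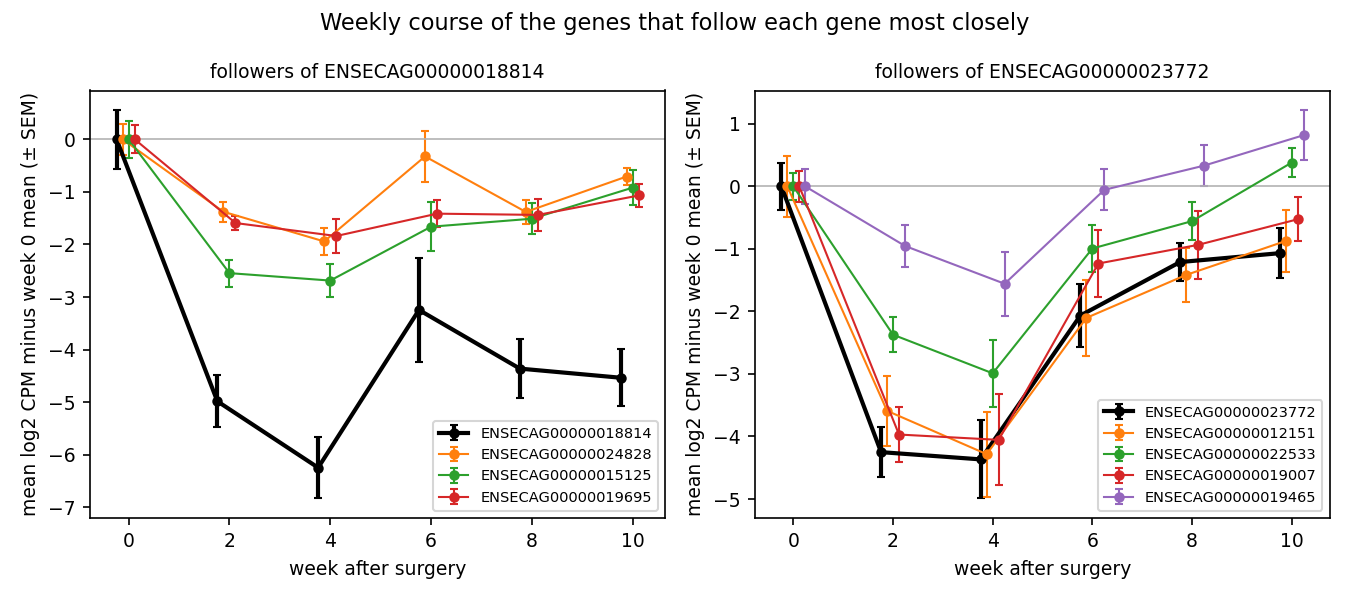
Mean log2 CPM at each week after surgery (horizontal axes) minus the week 0 mean (vertical axes, ± SEM over horses), for each gene (black) and the genes most like it, from libraries of spread 2 or more in both arms. The genes most like each gene were picked for their r with it over these same libraries, so a shared course largely follows from the choice. Beside ENSECAG00000023772, ENSECAG00000022533 and ENSECAG00000019465 ended above their own week 0 means. The genes most like ENSECAG00000018814 fell by less than it did, and it was chosen for its large fall.

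The gene most like ENSECAG00000023772 stayed near the top under the choices tried, and the next 2 ranked lower under some of them. Likeness was Pearson r over the 70 libraries of spread 2 or more, among genes averaging 1 log2 CPM or more. It is a description, since the libraries share horses and weeks. The highest r was 0.93 for ENSECAG00000012151, which also had the fourth largest fall, followed by 0.90 for ENSECAG00000022533 and 0.89 for ENSECAG00000019007. ENSECAG00000012151 had mean levels of 8.35, 4.76, 4.07, 6.25, 6.93 and 7.48 at weeks 0 to 10, beside 9.18, 4.93, 4.82, 7.12, 7.97 and 8.11 for ENSECAG00000023772 in the same libraries. Its r lay between 0.90 and 0.93 under 6 other choices of libraries or measure, at ranks 1 to 3. ENSECAG00000022533 was at r = 0.79 and rank 11 over all 93 libraries, and at 0.82 and rank 15 on deviations from the arm-by-week means. ENSECAG00000019007 was at 0.67 and rank 79, and at 0.77 and rank 32, under the same 2 choices. In all, 29 of 11817 genes had r of at least 0.8 with ENSECAG00000023772 and 8 had r of -0.8 or lower.

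Once the arm-by-week means were taken out, the gene most like ENSECAG00000023772 was ENSECAG00000019465, with r = 0.91 on the deviations. It also ranked first over the 41 libraries of weeks 4 to 10, with r = 0.94, and stood at place 17 over all 70 libraries with r = 0.84. Its own course was shallower, with means of 9.56, 8.60, 8.00 and 10.37 at weeks 0, 2, 4 and 10, the last above its own week 0. On the deviations ENSECAG00000012151 was second with r = 0.90.

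ENSECAG00000018814 had no follower of that closeness. The highest r were 0.74 for ENSECAG00000024828, 0.72 for ENSECAG00000015125 and 0.71 for ENSECAG00000019695, and 0 of 11818 genes reached 0.8. ENSECAG00000024828 was also first on deviations from the arm-by-week means, with r = 0.63. Within weeks 4 to 10 these genes stood at ranks 10, 65 and 227, with r of 0.64, 0.55 and 0.48. ENSECAG00000024828 had means of 3.23, 1.85, 1.28, 2.90, 1.84 and 2.52 at weeks 0 to 10, beside 4.67, -0.31, -1.57, 1.43, 0.31 and 0.14 for ENSECAG00000018814 in the same libraries. Both had their second highest mean at week 6.

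Among the genes ranked by likeness to ENSECAG00000018814, ENSECAG00000023772 stood at place 13 of 11818, with r = 0.68. ENSECAG00000018814 averaged 0.99 in these libraries, just under the limit, and ranked 144 of 15837 for ENSECAG00000023772 when the limit was dropped. Of the 100 genes most like ENSECAG00000018814 and the 100 most like ENSECAG00000023772, 39 were in both lists. With all 93 libraries 5 were shared, and with the 41 libraries of weeks 4 to 10 it was 8.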

How the data were processed

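The authors deposited 1 table of log2 CPM values for 15838 genes in 93 libraries of synovial fluid cells (total RNA, stranded low-input kit, per the labels' protocols). The submitters' processing notes name STAR 2.7.10b, EquCab3.0 and limma 3.62.2. For read counting, use of strand, annotation release and gene filter, nothing is given in the sources used here, so reads of overlapping or near-identical genes may be shared uncertainly. The deposited log2 values equal whole reads plus 0.5 over a scaled library size (100% whole within 0.05 reads). Reads in genes were 1737741 to 39916655 per library, median 21063527, and are not counted molecules. The added 0.5 reads understate changes of low genes.

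Horses are the replicates, and the same animals were sampled repeatedly (consensus correlation 0.04). A limma 3.58.1 model (R 4.3.3) of 12 arm-by-week means was fitted to all genes and libraries, with horse as a random block, eBayes with trend and Benjamini-Hochberg adjustment over all genes of a contrast at 0.05. Intervals are at 95%. Contrasts made only of weeks 0 and 2, contrasts of either week within 1 arm or over both, and correlations at these weeks are given without tests, because those weeks chose the genes. The model and the correlations were tried on simulated data. The simulated reads took their gene proportions from libraries of spread 2 or more, so they did not try the model on low-spread libraries. Correlations, tables and plots used matplotlib 3.10.9, pandas 2.3.3, scipy 1.17.1 and numpy 2.4.6 under Python 3.11.15. Named followers are the 3 genes of highest Pearson r with each gene, and the highest on deviations from arm-by-week means, among genes of mean log2 CPM of at least 1 in libraries of spread 2 or more. The genes, the spread limit and the rules were chosen with earlier results of these data known. Marker lists were not read, since no identifier had a symbol. The joint of each library is not given in the labels. The labels name no batch.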

Additional observations from a re-analysis of the deposited data

How the results depend on the processing

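The rise of ENSECAG00000023772 from week 4 to week 10 over both arms was called under all 11 alternatives (2.75 to 3.32, limma adjusted p at most 0.00223) and with each horse left out (2.63 to 3.13). The week 4 arm difference of ENSECAG00000018814 was -0.68 without libraries of spread below 2, 0.78 with spread as a covariate, 2.05 with voom weights and 2.68 in horses with all 6 weeks, and was not called in these (limma adjusted p = 0.898, 0.642, 0.589 and 0.0679). It was called under the other 6 alternatives, and with 1 horse left out it ran from 2.54 to 3.96. The cause was not tested. Its arm difference in change from week 2 to weeks 4 to 10 turned to 0.29 with array weights, its week 10 minus week 4 difference ran from 1.49 to 2.44 with 1 horse left out, its iPAAG difference between weeks 10 and 0 was -4.92 without low-spread libraries, and the week 10 correlation of the pair was -0.16 over all libraries. Array weights added calls for ENSECAG00000018814 at week 10 (3.82) between arms and for week 10 minus week 4 in Control (2.65). In these 2 contrasts array weights called 13112 and 5878 of 15838 genes.

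With horse as a fixed replicate block the week 10 minus week 4 difference of ENSECAG00000023772 was 2.88, and without the block 2.84. The arm differences in change were -0.73 and -0.74, and for ENSECAG00000018814 -0.51 and -0.59. The block changed no call on either gene, and the fixed block could not estimate arm differences within a week. Genes called at week 4 between arms numbered 8589, and 16 without low-spread libraries, 2435 with the spread covariate, 5493 with voom weights and 14224 with array weights. For week 10 minus week 4 over both arms they numbered 1488, and 3307, 3739, 1407 and 5776 in the same order, with 2280 in horses with all 6 weeks. Leaving out 1 horse took the week 4 count to 5637 (iPAAG horse 7) and the week 10 minus week 4 count to 678, 971 and 981 (Control horses 9, 15 and 16), 845 and 929 (iPAAG horses 12 and 17) or 2503 (iPAAG horse 14). In Control alone the latter, 1970, fell to 534, 1041, 1113 and 1134 without Control horse 9, 2, 16 or 15, and was 1181 with quantile normalisation, 1183 with voom weights, 3361 without low-spread libraries, 3510 with the spread covariate and 5878 with array weights. In iPAAG alone, 0, it was 16, 471, 6 and 4446 in the order above and 180 with quantile normalisation. For weeks 8 and 10 minus weeks 4 and 6, 912, the count ran from 278 (without iPAAG horse 5) to 2149 (without iPAAG horse 3) and to 10800 with array weights. Between arms at week 8, 133, it ran from 0 (without Control horse 16 or iPAAG horse 5) to 1352 with the spread covariate. At week 10, 0, it was 7450, 6745 and 7730 without Control horse 13, iPAAG horse 5 or iPAAG horse 14, and 13112 with array weights. For the arm difference in change, 0, it was 2903 (to weeks 4 to 10) and 4885 (to week 10) without iPAAG horse 14, 10320 and 11317 with array weights, and 2358 for the former with the spread covariate. Depth limits ENSECAG00000018814 most, with a median of 16.5 reads at week 4, and its values there move by whole reads.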

Other observations

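Control horses 15 and 16 had an excursion of ENSECAG00000018814 at week 6 that belongs to no comparison above and was singled out after its values were seen. Horse 15 went from -5.04 at week 4 to 5.52 at week 6 and -1.03 at week 8, and horse 16 from -1.85 to 5.94 and -3.70. Their week 6 values exceeded their own week 0 values of 5.15 and 5.17. ENSECAG00000023772 in the same horses went from 3.94 to 7.26 and 7.50, and from 2.67 to 7.24 and 6.57, without a peak of that size. These are single libraries per horse and week, so no repeat is available.

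Within the 20 low-spread libraries of weeks 4 to 10 the r between the genes was -0.55 over 11 horses, against 0.51 in the 41 other libraries of those weeks. The difference was not tested.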
